A study of Mus musculus with 12 samples.

Results

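The expression difference between smoke and air was taken over both host genotypes of a mouse lung tumour study, as the mean of the smoke minus air difference in Wildtype hosts and of that in P65 KO hosts. All 12 arrays entered, 6 of smoke-exposed and 6 of air-exposed mice, and they are all 12 arrays of the series. Genes that moved the same way with smoke in both genotypes are described here: 173 of 19937 measured genes (0.868%) had a Benjamini-Hochberg adjusted p of at most 0.05 in limma and the same sign in each genotype. The genotypes share no array, so the size of each difference came from its own 6 arrays. The variance behind each p-value was pooled over all 12 arrays, so the tests in the genotypes are not independent. With each genotype fitted alone, 299 genes passed in both with the same sign, among them only 149 of the 173.

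RNA came from tumours of Lewis lung carcinoma, a transplantable mouse tumour line, taken from lungs of C57BL/6 females. Hosts were wild type (Wildtype) or deficient in RelA/p65 (P65 KO), which forms part of NF-kB, a regulator of inflammatory genes, and had breathed air or smoke, which gave 4 groups of 3 arrays: Wildtype air, Wildtype smoke, P65 KO air and P65 KO smoke. The series title places the deletion in myeloid cells, while the labels name neither the part of the gene removed nor the promoter that drove its removal, nor the kind, dose or length of the smoke. Levels are log2 expression (RMA), differences are log2 smoke minus air with the standard error (SE) of limma's fit, and n = 3 arrays in every group. The labels do not state that a group's arrays are separate animals. Each p-value therefore reflects only the variation among these arrays, possibly technical, and precision is limited by their number. Within a group, pairwise r lay between 0.990 and 0.998.

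Cigarette smoke carries polycyclic aromatic compounds that bind the aryl hydrocarbon receptor and oxidants that activate NRF2, and induction of Cyp1a1, Cyp1b1 and Nqo1 is the textbook sign of exposure. Smoke is also known to draw neutrophils and macrophages into the lung. A tumour cut out of a lung holds carcinoma cells, recruited leukocytes, stroma and a variable share of lung tissue, so its RNA is a mixture.

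Rela, the gene of p65, was no lower where the label reads P65 KO. It read 9.25, 9.16 and 9.26 in Wildtype air, 9.04, 9.01 and 9.19 in Wildtype smoke, 9.45, 9.44 and 9.38 in P65 KO air and 9.30, 9.37 and 9.27 in P65 KO smoke. The name P65 KO is used here as a label alone. Lung markers were high in tissue labelled as tumour: Sftpc, the surfactant protein of alveolar type II cells, ran from 12.24 to 14.15 over all arrays. Markers for the carcinoma line itself were not fixed, so the tumour share was not checked. The mean level of 20 alveolar type II markers was 10.68 to 10.89 in Wildtype air, 8.84 to 9.04 in Wildtype smoke, 11.58 to 11.60 in P65 KO air and 11.55 to 11.66 in P65 KO smoke. It was lower with smoke in Wildtype arrays alone and highest in P65 KO arrays of either exposure. In such bulk samples, fewer cells of a type and less RNA per cell cannot be told apart.

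Averaged over genotypes, 3789 genes (19%) passed the test, 1398 higher (7.01%) and 2391 lower (12%) with smoke. Of these, 3178 (83.9%) passed in Wildtype alone, 149 in P65 KO alone, 261 in neither, 28 in both with opposite signs and 173 (4.57%) in both with the same sign. Signs were the same in both genotypes for 2983 of the 3789 (78.7%), whether or not each passed. Selection on the mean of both differences favours equal signs, so this share does not measure a shared response. In Wildtype, 2991 genes were higher (15%) and 2787 lower (14%), against 138 higher (0.692%) and 343 lower (1.72%) in P65 KO. These shares of all genes are the background for the list counts given below. The 173 same-direction genes were 34 higher (0.171%) and 139 lower (0.697%), equal to 2.99% of the genes called in Wildtype and 36.0% of those called in P65 KO. A further 120 genes (0.602%) passed in both genotypes with opposite signs, 24.9% of the P65 KO calls. Among P65 KO calls, 40.5% of the falls and 24.6% of the rises were same-direction genes, and 20.7% of the falls and 35.5% of the rises were opposite.

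**Figure D1:**
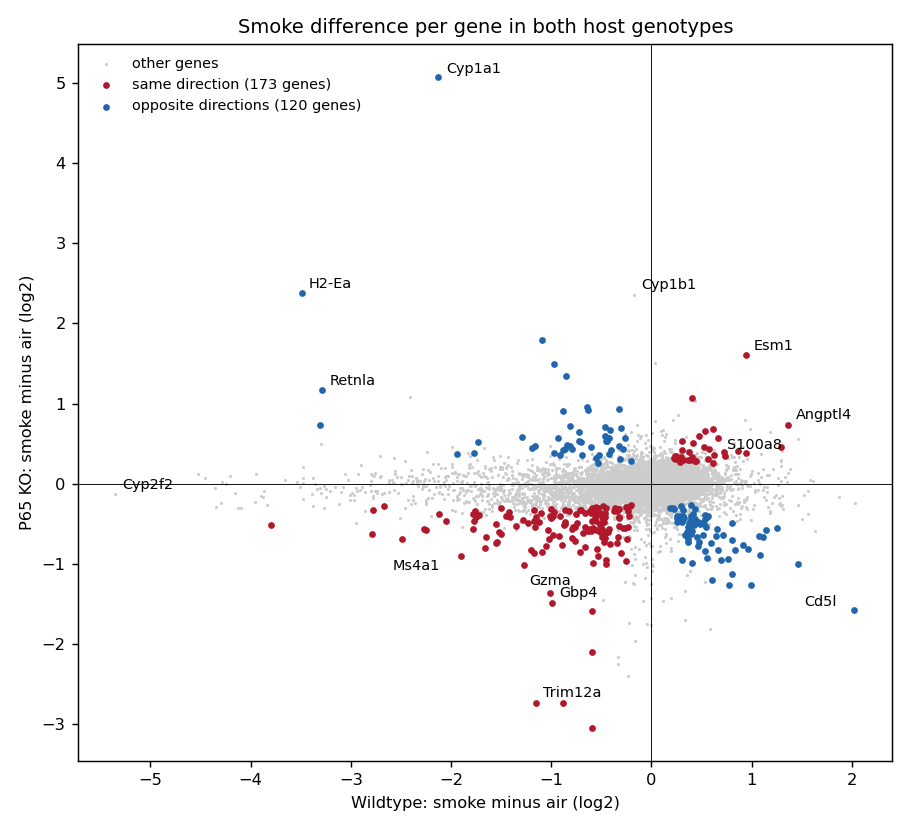
Smoke minus air difference of each of 19937 genes in Wildtype (horizontal, log2) and in P65 KO (vertical, log2). Red points are the 173 genes that passed in both genotypes with the same sign, blue points the 120 that passed with opposite signs, and grey points all others. The grey cloud is wide along the Wildtype axis and narrow along the P65 KO axis, and most red points lie in the lower left quadrant.

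Shared rises were small. Their median difference was 0.44 in Wildtype and 0.37 in P65 KO, against a median of 0.08 and -0.003 over all genes, and 0 of 34 reached 2-fold in both genotypes. Shared falls had medians of -0.71 and -0.51, and Trim12a, Gzma and H2-Ob fell by more than 2-fold in both. For 169 of the 173, smoke and air arrays did not overlap in either genotype. The naming rule asked for this among the largest rises and falls, so it is no separate finding for a named gene. By the interaction contrast, which called 2909 genes in all (14.6%), 70 of the 173 differed in size between genotypes, 56 of them with the larger difference in Wildtype and 14 with the larger in P65 KO. Nearest the adjusted p limit in P65 KO were Pank1 (0.0498), Dpep2 (0.0497) and Col6a1 (0.0493) inside it and Rarres2 (0.0502), BC028528 (0.0507) and Angpt1 (0.0509) outside it.

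The balance of rises and falls depended on scaling. Rises made up 36.9% of the average calls and 19.7% of the same-direction genes as deposited. After another quantile normalization, over the 21640 probe sets that named 1 gene, they made up 53.5% and 31.7%. With each array centred on its median, the shares were 70.2% and 35.8%. All 173 genes kept both signs under both of these scalings. Leaving out P65 KO air array 1, 2 or 3 lowered the count of 173 to 96, 81 or 83, leaving out P65 KO smoke array 1, 2 or 3 lowered it to 88, 112 or 93, and leaving out Wildtype smoke array 1 raised it to 287. Over 22 settings that tested each genotype, 55 of the 173 genes stayed called with the same sign in every setting, 6 of them higher and 49 lower. Esm1, Angptl4, S100a8, S100a9, Cd33, Gzma, Nkg7, Ms4a1, H2-Ob, Gbp4 and Trim12a were among these 55. Of these, S100a9 and Cd33 missed the 0.5 log2 limit, with smaller differences of 0.47 and 0.40. Over all 173 genes, the lowest number of settings was 5. Named genes called in no more than 11 settings were Tapbp (8), Col6a1, Insig1, Sntn and Spag17 (9 each), Col6a2 and Dpp4 (10 each), Snai1 and Lss (11 each) and, near the p limit, Pank1 (7) and Dpep2 (8).

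Esm1, an endothelial proteoglycan known as a marker of vessel sprouting, had the largest shared rise, ranked by the smaller of its differences in the 2 genotypes. It read 7.59, 7.75 and 7.95 in Wildtype air and 8.77, 8.70 and 8.67 in Wildtype smoke, and 7.43, 7.70 and 7.68 in P65 KO air and 9.04, 9.26 and 9.33 in P65 KO smoke. Air levels were alike in the genotypes and each smoke array lay above each air array. The rise was 0.95 ± 0.11 (1.93-fold; adjusted p = 1.49e-05) in Wildtype and 1.61 ± 0.11 (3.04-fold; adjusted p = 2.04e-06) in P65 KO, larger in P65 KO by 0.66 (adjusted p = 0.00828). Other endothelial markers went another way: of 30 in the list, 24 fell and 1 rose in Wildtype and 0 fell and 3 rose in P65 KO. Median differences were -0.85 and -0.01. In this list 0 were shared, against 0.868% of all genes, a share from which so short a list cannot differ. Esm1 was not in that list.

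Angptl4, a secreted inhibitor of lipoprotein lipase that responds to fasting, glucocorticoids and low oxygen, came next among the named genes. Its levels were 8.31, 8.63 and 8.20 in Wildtype air, 9.83, 9.76 and 9.65 in Wildtype smoke, 8.28, 8.24 and 8.06 in P65 KO air and 8.86, 9.01 and 8.92 in P65 KO smoke. Smoke arrays were above air arrays in both genotypes, by 1.37 ± 0.10 in Wildtype (adjusted p = 3.15e-07) and 0.74 ± 0.10 in P65 KO (adjusted p = 0.00137). Cpt1a, the carnitine palmitoyltransferase that admits fatty acids to mitochondria, rose by 0.63 and 0.36. Hilpda, a lipid droplet protein induced by low oxygen, rose by 0.53 ± 0.10 and 0.45 ± 0.10 (adjusted p = 0.00202 and 0.0367). It was called shared in only 12 of 22 settings and lost that call when any single P65 KO array was left out. Gadd45g, a stress-response gene, rose by 0.42 and 0.51 (adjusted p = 0.00389 and 0.00724). Hypoxia and glycolysis genes as a list did not follow in P65 KO: 22 of 31 rose in Wildtype and 0 in P65 KO, where 3 fell. Their medians were 0.40 and -0.09. None was shared, against 0.868% of all genes, so for shared genes the list is too short to differ from that share. Of 17 glucocorticoid-responsive and metallothionein genes, 8 rose in Wildtype and 2 in P65 KO, the shared ones being Angptl4 and Gadd45g.

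Hilpda has 2 annotated starts in RefSeq (GRCm38.p6), and the 250 bases before each were searched for ACGTG, the core of the hypoxia response element, on both strands, because this gene rose in both genotypes. The window of the second start, chr6:29272376-29272625 on the plus strand, held 1 match, shown in capitals, whose lowest position was 43 bases before the start (position -43); the window of the first start and that of Esm1 held 0. ACGTG occurred in 16.6% of 32851 such windows, so a match is a description and not a site.

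Hilpda: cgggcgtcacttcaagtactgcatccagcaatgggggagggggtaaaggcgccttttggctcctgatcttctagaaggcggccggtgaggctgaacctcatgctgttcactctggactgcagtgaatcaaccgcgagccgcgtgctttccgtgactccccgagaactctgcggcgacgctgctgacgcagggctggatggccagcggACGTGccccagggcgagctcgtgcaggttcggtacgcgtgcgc

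Neutrophil genes gave 4 of the shared rises, as did matrix genes, the most of any list. S100a8 and S100a9, which encode the subunits of calprotectin in neutrophils and monocytes and lie next to each other on chromosome 3, rose together, and so did Cxcr2, the receptor for neutrophil chemokines. S100a8 read 6.07, 6.18 and 6.18 in Wildtype air, 6.72, 6.84 and 6.87 in Wildtype smoke, 6.87, 6.86 and 6.90 in P65 KO air and 7.45, 7.59 and 7.30 in P65 KO smoke. P65 KO air arrays thus stood where Wildtype smoke arrays did, and smoke lay above air in each genotype, by 0.67 ± 0.08 in Wildtype (1.59-fold; adjusted p = 2.59e-05) and 0.57 ± 0.08 in P65 KO (1.48-fold; adjusted p = 0.00126). S100a9 rose by 0.47 ± 0.10 and 0.59 ± 0.10 (adjusted p = 0.00262 and 0.00426). For both calprotectin genes the interaction missed the test (adjusted p = 0.60 each).

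Cxcr2 levels were 6.17, 6.17 and 6.16 in Wildtype air, 6.98, 6.48 and 6.64 in Wildtype smoke, 7.26, 7.20 and 7.03 in P65 KO air and 7.83, 7.94 and 7.71 in P65 KO smoke. Its Wildtype air arrays were the lowest and nearly equal, and the rise was 0.54 ± 0.11 in Wildtype (adjusted p = 0.00296) and 0.66 ± 0.11 in P65 KO (adjusted p = 0.00517). Wfdc17, a small secreted protein of activated myeloid cells, rose more in Wildtype (1.29) than in P65 KO (0.46). Of 29 measured neutrophil markers and granule genes, 15 rose and 3 fell in Wildtype and 6 rose and 0 fell in P65 KO, with medians of 0.31 and 0.13. The mean level of the list was 6.46 to 6.62 in Wildtype air, 6.84 to 6.88 in Wildtype smoke, 6.97 to 7.05 in P65 KO air and 7.12 to 7.17 in P65 KO smoke, so the groups did not overlap.

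Other leukocyte genes rose beside them. Cd33, a sialic-acid-binding receptor of myeloid cells, rose from 7.88 to 7.99 in Wildtype air to 8.57 to 8.72 in Wildtype smoke and from 8.48 to 8.58 in P65 KO air to 8.89 to 8.96 in P65 KO smoke. The difference was 0.72 ± 0.06 and 0.40 ± 0.06 (adjusted p = 1.68e-06 and 0.00392), larger in Wildtype (adjusted p = 0.0273). Alox5, the 5-lipoxygenase of leukotriene synthesis, rose by 0.37 and 0.40, Il1f9, the cytokine also called interleukin 36 gamma, by 0.57 and 0.43, and Gda, guanine deaminase, by 0.95 and 0.39. Macrophage genes did not share this course. Of 25 macrophage and monocyte markers, 22 rose in Wildtype and 0 in P65 KO, where 5 fell, and Csf1r, the receptor of the macrophage growth factor, named after its values were seen, rose by 0.65 in Wildtype and fell by 0.56 in P65 KO. Slc4a1, the band 3 anion exchanger of red cells, rose by 0.41 and 1.07, whereas Alas2, the first enzyme of haem synthesis in red cell precursors, also named after its values were seen, fell by 0.86 in Wildtype and rose by 1.34 in P65 KO.

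The 250 bases before the starts of S100a8 and S100a9 (RefSeq, GRCm38.p6) are shown because these neighbours rose together. S100a8 lies at chr3:90668821-90669070 on the plus strand and S100a9 at chr3:90695722-90695971 on the minus strand. Capitals mark TTGCNNAA, letters of the kind bound by C/EBP factors of myeloid cells, searched on both strands. S100a9 held 1 match, from position -236 from its start, and S100a8 and Cxcr2 held 0, against 9.56% of 32851 windows with a match.

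S100a8: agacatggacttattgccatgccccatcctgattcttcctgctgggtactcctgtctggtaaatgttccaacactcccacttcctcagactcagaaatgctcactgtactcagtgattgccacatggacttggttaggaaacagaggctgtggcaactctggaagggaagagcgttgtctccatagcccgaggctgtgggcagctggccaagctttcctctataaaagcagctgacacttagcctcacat
S100a9: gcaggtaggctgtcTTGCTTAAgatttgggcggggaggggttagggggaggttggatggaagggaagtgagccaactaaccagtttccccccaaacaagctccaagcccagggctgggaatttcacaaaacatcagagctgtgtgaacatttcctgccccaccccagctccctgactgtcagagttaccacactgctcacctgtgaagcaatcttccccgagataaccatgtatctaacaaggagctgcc

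A few matrix genes, 4 of 31 in the list, rose in both genotypes by small amounts. Col6a1, Col6a2 and Col6a3, the chains of collagen VI, rose together, Col6a1 and Col6a2 being neighbours on chromosome 10. Col6a3 read 10.47, 10.28 and 10.06 in Wildtype air, 11.14, 11.16 and 11.10 in Wildtype smoke, 9.30, 9.37 and 9.35 in P65 KO air and 9.83, 9.61 and 9.80 in P65 KO smoke. Here P65 KO arrays of both exposures lay under all Wildtype arrays, and the rise was 0.86 ± 0.09 (adjusted p = 1.2e-05) and 0.41 ± 0.09 (adjusted p = 0.039). Col6a2 rose by 0.62 and 0.26 and Col6a1 by 0.44 and 0.28. Mmp14, a membrane-bound collagenase, rose by 0.30 and 0.42, and Snai1, a repressor of epithelial genes, by 0.39 and 0.30. Of 31 collagen and tumour-stroma matrix genes, 15 rose and 11 fell in Wildtype and 7 rose and 0 fell in P65 KO, with medians of 0.26 and 0.14. Col12a1, Lox and Mmp3, a collagen, a collagen cross-linking enzyme and a matrix protease named after their values were seen, went opposite ways, with -0.20, -0.45 and -1.29 in Wildtype and 0.29, 0.53 and 0.58 in P65 KO. The 4 shared ones rested on few arrays: without P65 KO air array 1, P65 KO air array 2, P65 KO smoke array 1 or P65 KO smoke array 3, 0 members of the list were shared. The number of shared members was 1 without P65 KO air array 3 or Wildtype air array 2. It was 2 without P65 KO smoke array 2, Wildtype air array 3 or Wildtype smoke array 2. Without Wildtype air array 1 the list held 4 shared rises, but Col6a1, Col6a2 and Mmp14 were not among them.

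**Figure D2:**
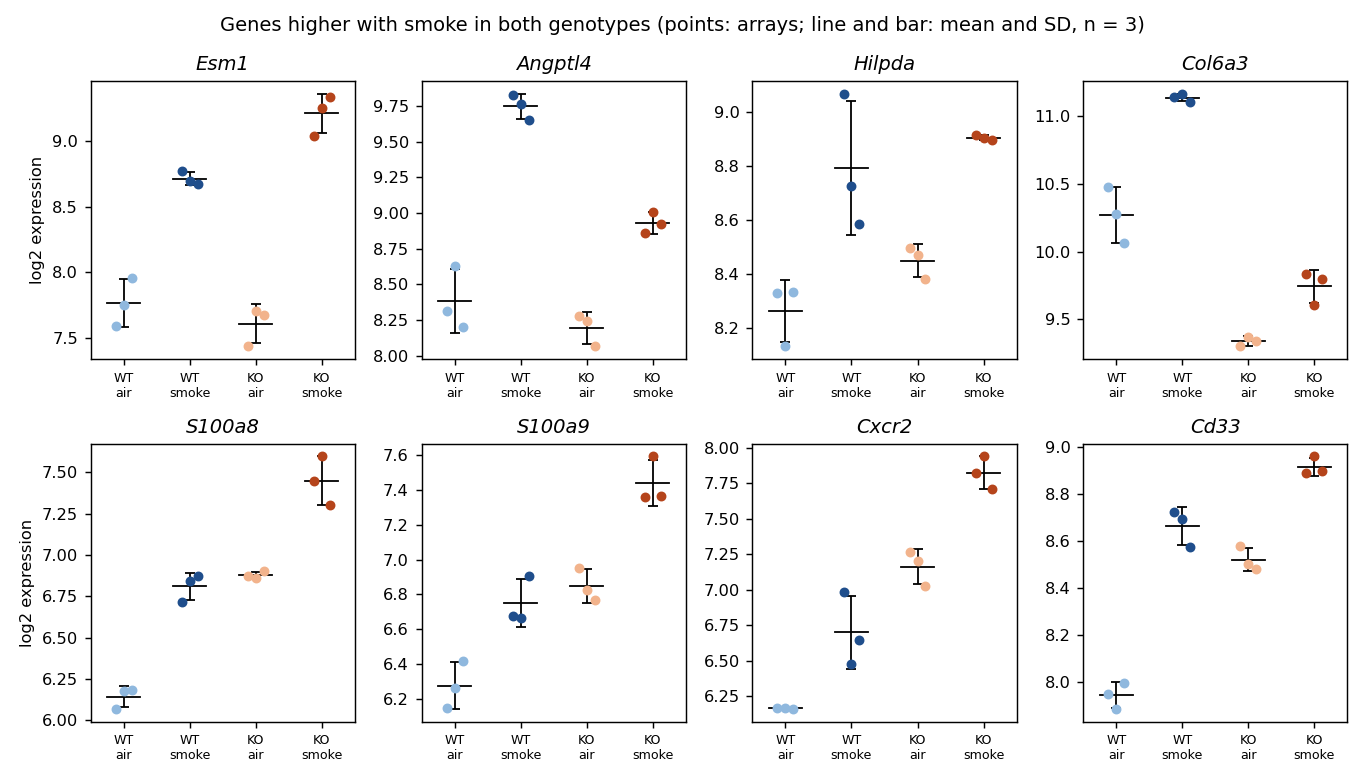
Log2 expression of 8 genes that were higher with smoke in both genotypes, in Wildtype (WT, blue) and P65 KO (KO, orange), air (pale) and smoke (dark). Points are arrays, horizontal lines the mean and bars the SD (n = 3), and each panel has its own axis that does not start at 0. Smoke points lie above air points within each genotype in all 8 panels, and 169 of the 173 shared genes had arrays apart in this way.

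Falls were more numerous, and genes of cytotoxic and B lymphocytes were among the largest. Gzma, granzyme A of natural killer and cytotoxic T cells, read 7.08, 6.65 and 6.91 in Wildtype air, 5.55, 5.46 and 5.8 in Wildtype smoke, 9.89, 9.88 and 9.87 in P65 KO air and 8.78, 8.94 and 8.87 in P65 KO smoke. P65 KO smoke arrays were thus still far above Wildtype air arrays, while smoke lowered the level by a similar amount in each genotype. The fall was -1.27 ± 0.11 in Wildtype (2.42-fold; adjusted p = 1.02e-06) and -1.02 ± 0.11 in P65 KO (2.03-fold; adjusted p = 0.00014), and the interaction missed the test (adjusted p = 0.30). Nkg7, a granule protein of the same cells, changed by -0.89 ± 0.08 and -0.76 ± 0.08 (adjusted p = 9.75e-07 and 8.36e-05), and Cd3g, a chain of the T cell receptor complex, by -1.01 and -0.41. Of 35 T and natural killer cell genes, 6 fell and 2 rose in Wildtype and 8 fell and 0 rose in P65 KO, with medians of -0.01 and -0.18. The falls in this list were those of a minority of its members, and the shared ones numbered 5 without Wildtype smoke array 1 and 2 without P65 KO air array 1 or 3 or P65 KO smoke array 1 or 3.

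Ms4a1, which encodes the B cell antigen CD20, read 6.86, 6.87 and 7.14 in Wildtype air, 4.99, 5.03 and 5.16 in Wildtype smoke, 7.95, 8.0 and 7.95 in P65 KO air and 7.13, 7.15 and 6.92 in P65 KO smoke. Smoke arrays lay under air arrays in each genotype, with a fall of -1.90 ± 0.09 (3.72-fold; adjusted p = 2.33e-09) in Wildtype that was larger than the -0.90 ± 0.09 (1.87-fold; adjusted p = 8.36e-05) in P65 KO. Cd79b, a signalling chain of the B cell receptor, changed by -1.03 and -0.58, Fcmr, the receptor for IgM, by -0.58 and -0.35, and Bank1, a B cell scaffold protein, by -0.32 and -0.41. Igkv9-120, a kappa light chain variable segment, changed by -0.88 ± 0.16 and -2.74 ± 0.16 (adjusted p = 0.00126 and 1.06e-06), more in P65 KO. Immunoglobulin segments resemble each other, so its value may hold signal of related segments. Jchain, the joining chain of secreted IgA and IgM, fell by 2.24 in P65 KO (adjusted p = 4.36e-06) and gave -0.33 in Wildtype (adjusted p = 0.137). Of 26 B and plasma cell genes, 8 fell in Wildtype, 7 in P65 KO and 13 in the average, with 0 rises in each, and medians of -0.18, -0.23 and -0.25 against 0.04 over all genes in the average.

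Single genes of antigen presentation and 3 guanylate-binding proteins also fell in both genotypes. Interferon-stimulated genes as a list had few calls: of 30 measured, 4 fell and 1 rose in Wildtype and 1 fell and 1 rose in P65 KO. Of these 30, 0 were shared, against 0.868% of all genes, so the list is too short to differ from that share. Its mean level was 8.65 to 8.71 in P65 KO air and 8.36 to 8.62 in P65 KO smoke. In Wildtype it was 7.31 to 7.95 in air and 7.50 to 7.68 in smoke. H2-Ob, the beta chain of H2-O, which modulates peptide loading of MHC class II in B cells, read 7.20, 6.92 and 7.15 in Wildtype air, 6.12, 6.27 and 5.83 in Wildtype smoke, 8.95, 9.12 and 9.02 in P65 KO air and 7.61, 7.72 and 7.69 in P65 KO smoke. The groups did not overlap, and the fall was -1.02 ± 0.11 (adjusted p = 8.52e-06) and -1.36 ± 0.11 (adjusted p = 1.04e-05). Of 12 MHC class II presentation genes, 5 fell and 1 rose in Wildtype, 4 fell and 1 rose in P65 KO, and 8 fell in the average, with H2-Ob the shared member. Shared members numbered 2 without Wildtype air array 1 or Wildtype smoke array 1 and 3 without Wildtype air array 2. Cd74, the invariant chain, fell by 0.90 in Wildtype (adjusted p = 5.13e-05) and gave -0.43 in P65 KO (adjusted p = 0.088), while Ciita, the class II transactivator, gave -0.04 in Wildtype (adjusted p = 0.71) and fell by 1.04 in P65 KO. Tapbp, the tapasin of MHC class I loading, changed by -0.26 and -0.29.

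Gbp4, an interferon-induced guanylate-binding protein, read 8.80, 8.01 and 8.16 in Wildtype air, 7.53, 7.24 and 7.23 in Wildtype smoke, 11.45, 11.56 and 11.46 in P65 KO air and 9.81, 10.38 and 9.83 in P65 KO smoke. Its difference was -0.99 ± 0.19 in Wildtype (adjusted p = 0.00152) and -1.48 ± 0.19 in P65 KO (adjusted p = 0.000694). The neighbouring Gbp8 and Gbp9 changed by -0.60 and -1.59 and by -0.71 and -0.85. These paralogues are alike in sequence, so probes may not separate them fully and the 3 genes are no independent evidence. All 10 measured guanylate-binding proteins and immunity-related GTPases but 1 fell in P65 KO and 3 in Wildtype, with medians of -1.20 and -0.17. Ido1, the tryptophan-degrading dioxygenase, and Cd274, which encodes PD-L1, are known targets of the same cytokine. Ido1 gave -0.17 in Wildtype (adjusted p = 0.43) and fell by 1.96 in P65 KO, and Cd274 gave 0.33 (adjusted p = 0.0592) and fell by 1.34. Ccl5, a chemokine that attracts T cells, fell by 0.66 and 0.79 (adjusted p = 0.00961 and 0.0232). AW112010, a transcript of activated leukocytes, fell by 1.05 and 0.78.

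Trim12a, a tripartite motif gene of a cluster that differs between mouse strains, had the largest shared fall, ranked by the smaller of its differences in the 2 genotypes. It read 8.35, 8.21 and 8.49 in Wildtype air, 7.39, 7.24 and 6.95 in Wildtype smoke, 9.77, 9.77 and 9.68 in P65 KO air and 6.96, 7.06 and 7.01 in P65 KO smoke. Smoke arrays of both genotypes stood near the same level although air arrays did not, and the fall was -1.16 ± 0.10 (2.23-fold) and -2.73 ± 0.10 (6.64-fold; adjusted p = 8.99e-09). Of 7 measured genes known to vary between mouse strains, Trim12a was shared and H2-Ea was opposite. Strain background beyond the label C57BL/6 was not tested.

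**Figure D3:**
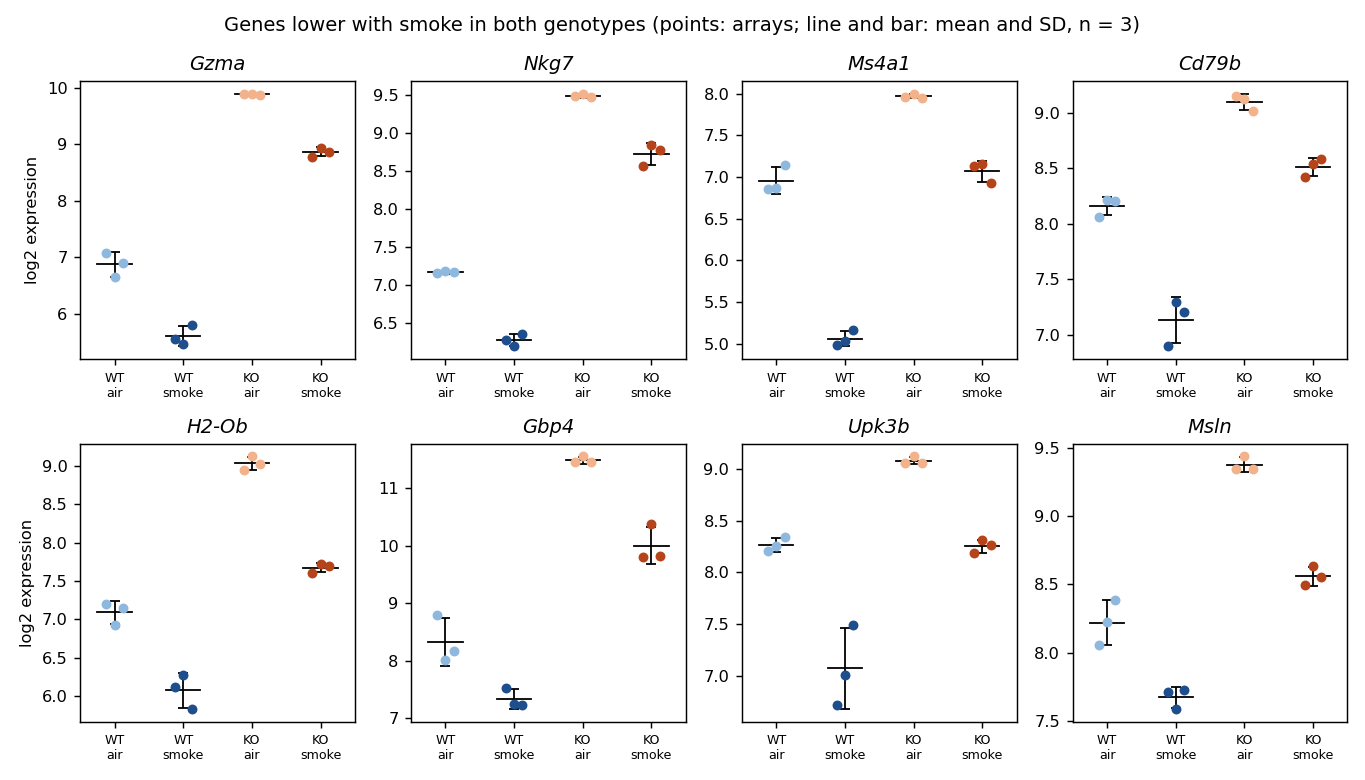
Log2 expression of 8 genes that were lower with smoke in both genotypes, in Wildtype (WT, blue) and P65 KO (KO, orange), air (pale) and smoke (dark). Points are arrays, lines the mean and bars the SD (n = 3), and each panel has its own axis that does not start at 0. Smoke points lie under air points within each genotype, and 169 of the 173 shared genes had arrays apart in this way. In all 8 panels P65 KO air arrays are the highest group.

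Some genes of the lung surface and stroma also fell in both genotypes. Upk3b and Msln are markers of mesothelium, the lining of the pleura. Upk3b read 8.21, 8.25 and 8.34 in Wildtype air, 6.71, 7.0 and 7.49 in Wildtype smoke, 9.06, 9.12 and 9.06 in P65 KO air and 8.19, 8.31 and 8.26 in P65 KO smoke. Its P65 KO smoke arrays overlapped the Wildtype air arrays, and the fall was -1.20 ± 0.14 (adjusted p = 2.58e-05) and -0.83 ± 0.14 (adjusted p = 0.00535). Msln changed by -0.55 and -0.82, Lrrn4, another mesothelial gene, by -0.47 and -0.61, and Adipoq, the hormone of fat cells, by -0.59 and -0.99. Of 12 measured mesothelial and adipocyte markers, 6 fell and 1 rose in Wildtype, 4 fell and 0 rose in P65 KO, and those 4 were the shared ones. Their number stayed at 4 or 5 with each array left out in turn.

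Mfap4, a microfibril protein of lung fibroblasts and vessels, fell by 1.78 ± 0.08 in Wildtype and 0.56 ± 0.08 in P65 KO (adjusted p = 1.1e-09 and 0.00122). Foxf1, a transcription factor of lung mesenchyme and capillaries, fell by 1.41 and 0.42. Of 19 resident lung fibroblast markers, 17 fell in Wildtype and 2 in P65 KO, and Mfap4 and Foxf1 were the shared ones. Their number was 1 without any P65 KO air array, P65 KO smoke array 1 or P65 KO smoke array 3. Myl4 and Nppa, an atrial myosin light chain and the atrial natriuretic peptide, and Pln, the calcium pump inhibitor phospholamban, mark the heart muscle that sheathes mouse pulmonary veins. Myl4 fell by 2.05 and 0.46, Nppa by 1.02 and 0.69, and Pln by 1.79 and 0.38. Of 18 such markers, 13 fell in Wildtype and 3 in P65 KO, and 0 rose in either. The number shared was 1 without P65 KO air array 1 or 2 or any P65 KO smoke array.

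Further named falls belonged to no list or to several cell types. Ly6d, a surface protein of B cell precursors and squamous epithelium, fell by 1.17 ± 0.11 and 0.86 ± 0.11, and Sox11, a developmental transcription factor, by 1.09 and 0.85. Gap43, a growth cone protein of neurons, fell by 1.66 and 0.80, Tinag, a basement membrane protein, by 1.55 and 0.74, and Npy1r, a receptor of neuropeptide Y, by 1.54 and 0.72. Ptn, the growth factor pleiotrophin, differed from the lung and immune genes in its levels, which were higher in Wildtype. It read 9.42, 9.50 and 9.59 in Wildtype air, 8.79, 8.66 and 8.77 in Wildtype smoke, 7.51, 6.88 and 7.41 in P65 KO air and 6.62, 6.47 and 6.57 in P65 KO smoke. The fall was -0.76 ± 0.13 and -0.71 ± 0.13 (adjusted p = 0.000654 and 0.00899), and the groups did not overlap.

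Sterol genes fell nearly throughout in Wildtype and in part in P65 KO. Lss, lanosterol synthase, changed by -0.91 and -0.40, Msmo1, a sterol demethylase, by -1.0 and -0.32, Insig1, the sterol-induced brake on the pathway, by -1.17 and -0.33, and Scd2, a fatty acid desaturase, by -1.50 and -0.30. Insig1 read 10.53, 10.51 and 10.62 in Wildtype air, 9.51, 9.36 and 9.28 in Wildtype smoke, 10.77, 10.86 and 10.74 in P65 KO air and 10.37, 10.42 and 10.60 in P65 KO smoke. The P65 KO fall of Insig1 was small and just passed the test (adjusted p = 0.0488), and all 4 genes fell more in Wildtype by the interaction (adjusted p from 1.14e-06 to 0.0204). Of 22 cholesterol synthesis and lipid genes, 21 fell in Wildtype, 4 in P65 KO and 20 in the average, with medians of -0.72, -0.18 and -0.46. The 4 shared genes became 0 without P65 KO air array 1, 2 or 3 or P65 KO smoke array 2, 1 without P65 KO smoke array 3, and 2 without P65 KO smoke array 1, Wildtype air array 1 or 2 or Wildtype smoke array 2. They became 8 without Wildtype smoke array 1, and 0 with each array centred on its median. Letters TCACNCCAC, of the kind bound by sterol-response factors, were not found in the 250 bases before the starts of Lss, Msmo1 and Insig1, against 1.05% of all windows.

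**Figure D4:**
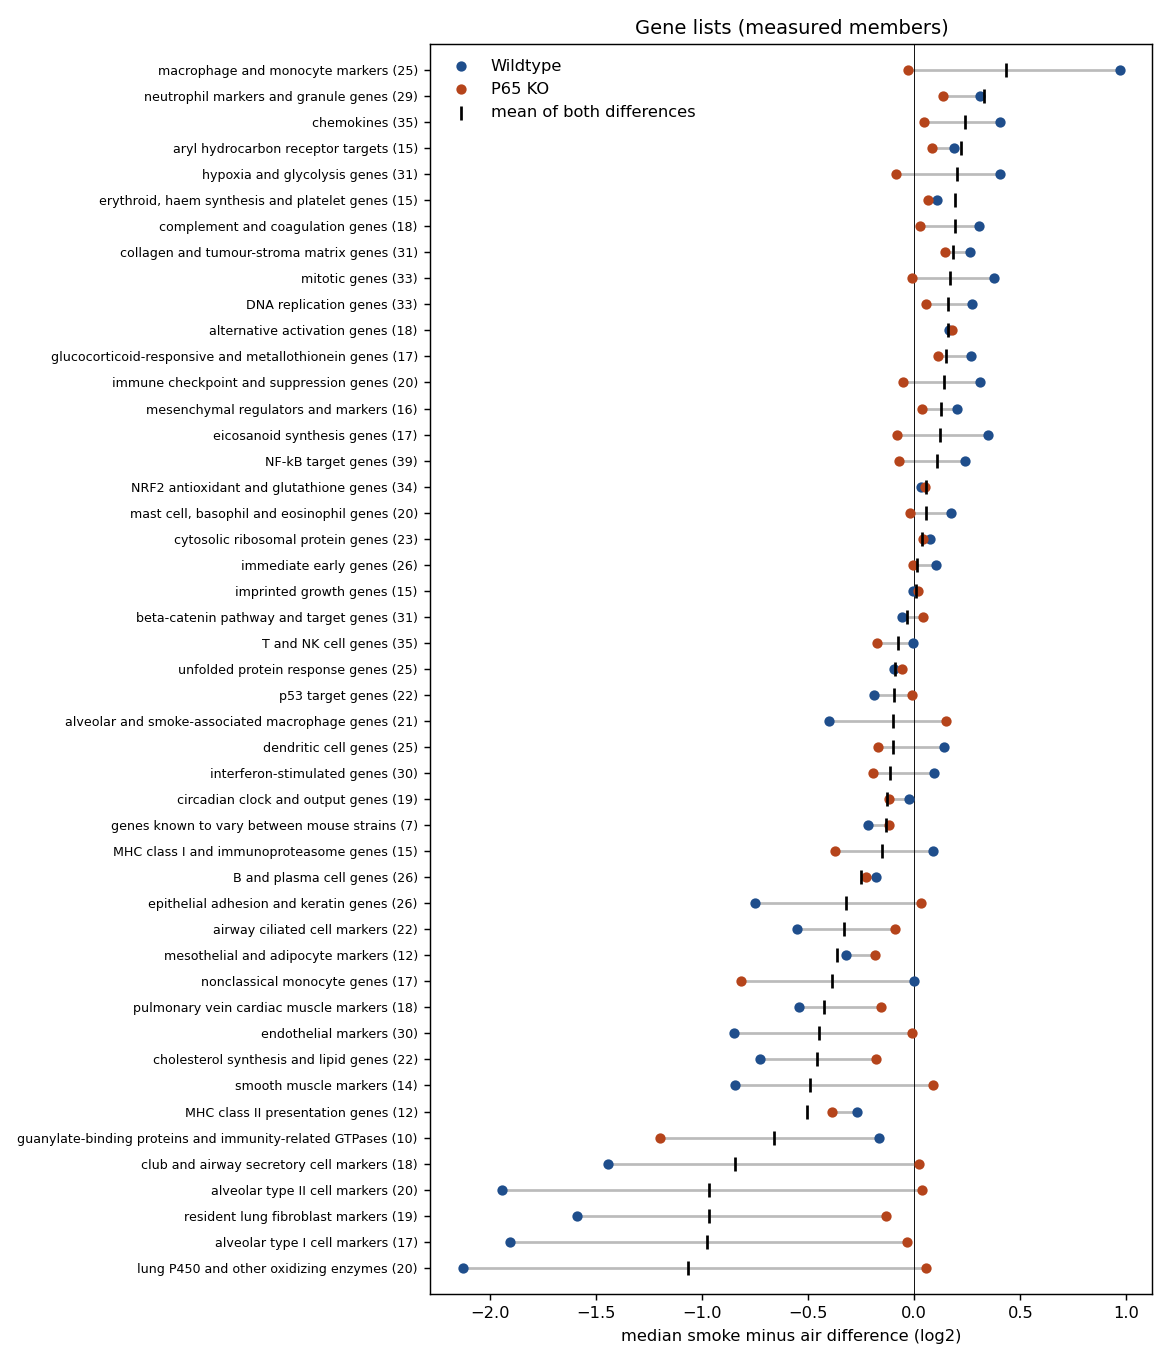
Median smoke minus air difference (log2) of the measured members of 47 lists, ordered by the median of the average, in Wildtype (blue), in P65 KO (orange) and for the mean of both differences (black tick), with the number of measured members in brackets. Lung cell lists lie far to the left in Wildtype and near 0 in P65 KO, guanylate-binding proteins the other way round, and neutrophil genes are to the right of 0 in both.

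The lists with the lowest average medians were mostly of lung cells and had few or no falls in P65 KO. Lowest was that of 20 lung cytochrome P450 and other oxidizing enzymes (-1.06), of which 17 fell in Wildtype and 0 in P65 KO, where 1 rose. All 20 alveolar type II markers fell in Wildtype (median -1.94) and 0 in P65 KO (median 0.04), where 1 rose. Of 17 alveolar type I markers, 16 fell in Wildtype (median -1.90) and 0 passed in P65 KO (median -0.03). Of 18 club and airway secretory markers, 14 fell in Wildtype and 0 in P65 KO, where 3 rose. The average of Cyp2f2, a club cell cytochrome P450, was -2.74 (adjusted p = 1.3e-11), made of -5.35 in Wildtype and -0.13 in P65 KO (adjusted p = 0.689). Reg3g, an airway antimicrobial lectin, Tmem100, a gene of lung endothelium, and Adh1, an alcohol dehydrogenase, had averages of -2.32, -2.27 and -2.22, again with differences of -4.34, -4.30 and -4.13 in Wildtype and -0.29, -0.24 and -0.31 in P65 KO, none of which passed. These genes head the average and are no shared response by the test used here.

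Mean levels of those lung lists were lower with smoke in Wildtype and nearly level in P65 KO, the latter being 11.29 to 11.34 in air and 11.22 to 11.36 in smoke for alveolar type I markers. Lists of fibroblast, heart muscle, and mesothelial and adipocyte genes, which held shared falls, had medians of -1.59, -0.54 and -0.32 in Wildtype. In P65 KO these were -0.13, -0.16 and -0.19. B and plasma cell genes had -0.18 in Wildtype and -0.23 in P65 KO, and T and natural killer cell genes -0.01 and -0.18. Alveolar list medians in P65 KO stayed within 0.1 log2 unit of 0. The part of the lung share in any fall was not tested.

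Among average rises of genes that did not pass in both genotypes, the 4 largest that the naming rule allowed were those of Cyp1b1, Slfn4, Ccr1 and Cxcl2. Slfn4, a Schlafen gene of myeloid cells, gave 1.46 in Wildtype and 0.56 in P65 KO, and Ccr1, a chemokine receptor, 1.18 and 0.65, and both missed the test in P65 KO (adjusted p = 0.712 and 0.345). Both had wide spread among Wildtype air arrays, from 6.39 to 8.16 and from 5.85 to 6.73. Cxcl2, a neutrophil chemokine, rose by 2.04 in Wildtype alone and gave -0.24 in P65 KO (adjusted p = 0.864).

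The textbook response to smoke was not shared. Cyp1a1 read 7.68, 7.71 and 7.97 in Wildtype air, 5.52, 5.67 and 5.77 in Wildtype smoke, 6.56, 6.54 and 6.30 in P65 KO air and 11.46, 11.54 and 11.63 in P65 KO smoke. It fell in Wildtype by 2.13 ± 0.10 (adjusted p = 2.19e-09) and rose in P65 KO by 5.08 ± 0.10 (33.7-fold; adjusted p = 6.6e-12). Its average rise of 1.47 (adjusted p = 7.3e-09) thus described neither genotype. Cyp1b1 rose by 2.35 and Nqo1, a quinone reductase of both pathways, by 1.50 in P65 KO, and gave -0.18 and 0.03 in Wildtype (adjusted p = 0.201 and 0.817). Aldh3a1, an aldehyde dehydrogenase, fell by 0.97 and rose by 1.50, and Ahr, the receptor, fell by 1.39 in Wildtype and gave 0.16 in P65 KO (adjusted p = 0.431). Tiparp, a receptor target, rose by 0.44 in Wildtype and gave -0.13 in P65 KO (adjusted p = 0.737). Cyp1a2 rose by 0.39 in Wildtype from a low level and Ahrr, the receptor's repressor, passed in neither. Of 15 aryl hydrocarbon receptor genes, 5 rose and 4 fell in Wildtype and 4 rose and 0 fell in P65 KO. Against 0.868% and 0.602% of all genes, 0 were shared and 2 were opposite. So short a list cannot differ from a share of 0.868% by having 0 shared genes.

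Some NRF2 genes divided in the same manner. Gclc, the catalytic subunit of glutathione synthesis, fell by 0.47 and rose by 0.59, and Gpx2 and Cbr3, a glutathione peroxidase and a carbonyl reductase, fell by 0.30 and 0.43 and rose by 0.69 and 0.58. Gclm, the partner subunit of Gclc, rose by 0.40 in Wildtype and gave 0.25 in P65 KO (adjusted p = 0.118). Srxn1, sulfiredoxin, gave 0.33 and 0.19, Txnrd1, thioredoxin reductase, 0.13 and 0.23, and Slc7a11, the cystine transporter, 0.30 and 0.19, with a call for Srxn1 in Wildtype alone. Gclm, Srxn1 and Txnrd1 passed in the average with the same sign in both genotypes (0.32, 0.26 and 0.18). Hmox1, haem oxygenase, rose by 1.28 in Wildtype and gave -0.25 in P65 KO. Of 34 NRF2 genes, 7 rose and 13 fell in Wildtype and 4 rose and 0 fell in P65 KO. Against 0.868% and 0.602% of all genes, 0 were shared and 4 were opposite. For shared genes the list is too short to differ from that share. Shared rises numbered 2 with quantile normalization, 3 with array weights (beside 1 shared fall), and 1 with each genotype fitted alone or without Wildtype smoke array 1. In the main fit, a search of promoters of shared members of these 2 lists for GCGTG and TGACNNNGC had no gene to act on.

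Other named genes with opposite differences were H2-Ea, Retnla, Cd5l and Ces1g. H2-Ea, an MHC class II alpha chain that mice of the C57BL/6 haplotype are known not to express, read 9.47, 9.71 and 9.95 in Wildtype air, 6.73, 5.51 and 6.41 in Wildtype smoke, 8.89, 8.59 and 9.95 in P65 KO air and 11.48, 11.55 and 11.52 in P65 KO smoke. It was high in all groups but Wildtype smoke, fell by 3.49 ± 0.32 in Wildtype and rose by 2.38 ± 0.32 in P65 KO. Retnla, a secreted product of alternatively activated macrophages and airway epithelium, fell by 3.29 and rose by 1.17. Cd5l, a macrophage scavenger protein, rose by 2.03 and fell by 1.57, and Ces1g, a carboxylesterase, fell by 1.09 and rose by 1.79.

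**Figure D5:**
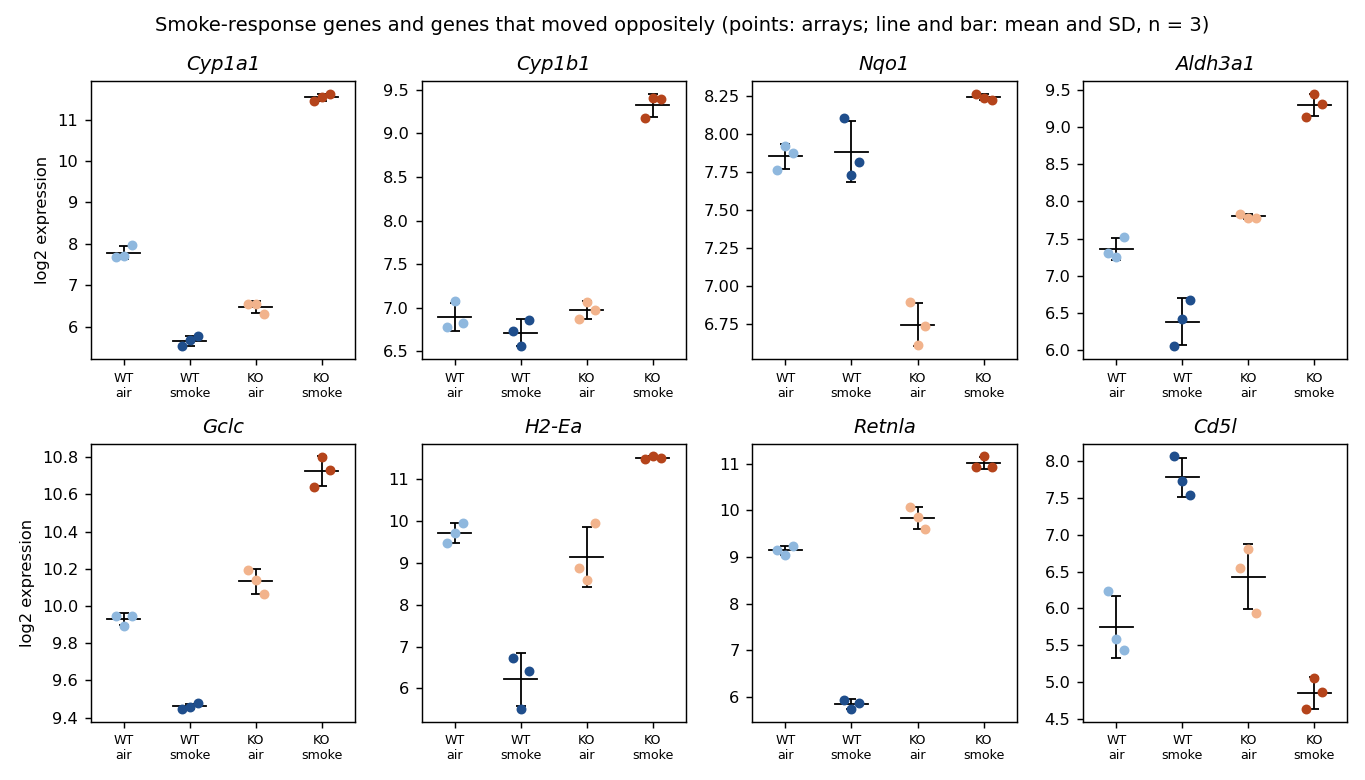
Log2 expression of 8 genes of the smoke response or with opposite differences, in Wildtype (WT, blue) and P65 KO (KO, orange), air (pale) and smoke (dark). Points are arrays, lines the mean and bars the SD (n = 3), and each panel has its own axis that does not start at 0. Cyp1a1, Aldh3a1, Gclc, H2-Ea and Retnla are lower with smoke in Wildtype and higher in P65 KO, Cd5l the reverse, and Cyp1b1 and Nqo1 are higher with smoke in P65 KO alone.

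None of the 33 mitotic genes in the list was shared, against 0.868% of all genes, so the list is too short to differ from that share. Mki67, a marker of cycling cells, gave 0.38 in Wildtype (adjusted p = 0.0575) and -0.00026 in P65 KO (adjusted p = 1.0), and of 33 mitotic genes 13 rose in Wildtype and 0 passed in P65 KO. Arg1, arginase of myeloid cells, rose by 1.50 in Wildtype and gave -0.44 in P65 KO (adjusted p = 0.387), and Mmp12, macrophage elastase, rose by 0.99 and gave 0.12 (adjusted p = 0.976). Of 23 cytosolic ribosomal protein genes, 0 passed in the average, in Wildtype or in P65 KO by limma as deposited.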

How the data were processed

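RNA of 12 samples was hybridised to Affymetrix mouse gene arrays, 3 per group of genotype and exposure. The authors deposited log2 values, made with RMA in Affymetrix Expression Console, per the submitters' processing notes. RMA subtracts background, equalizes the arrays' distributions and combines probes. Hence a shift of most genes in 1 group would be hidden. Groups came from the labels. Of 34760 probe sets, 21640 named 1 gene, 1321 named several and 11799 were not listed; each of 19937 genes took its brightest probe set (954 genes had several). The Entrez numbers of 21553 probe sets matched a GRCm38.p6 table, used for names.

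Group means were fitted in limma 3.58.1 (R 4.3.3; residual df 8, prior df 4.83), with contrasts for smoke against air in each genotype, their mean and their difference, 2-sided and adjusted by Benjamini-Hochberg over all genes at 0.05. Lists (47, with 1043 of 1149 memberships measured) were counted, not tested. Members, lists and settings were chosen with earlier results of these data known. Named genes were the 15 largest shared rises and 15 largest falls without array overlap, up to 4 shared members of a list, a fixed set, the 5 largest opposite genes, and the 4 largest rises and 4 largest falls of the average that were not shared. On simulated data, 94 of 100 genes shifted by 1 log2 unit and 62 of 100 shifted by 0.5 in both genotypes were called shared, and 0 of 100 shifted in Wildtype alone. The simulation drew independent normal noise and shifted far fewer genes than the 5778 called in Wildtype here. It therefore gives no error rate for the shared genes. Promoter windows are RefSeq's (GRCm38.p6), and 120 of 173 shared genes had one. All promoter letters except GCGTG and TGACNNNGC, and the genes searched for them, were chosen after values were seen. Figures were drawn with matplotlib 3.10.9 in Python 3.11.15. Alternatives were other summaries of probe sets, a filter on dim genes (kept if 3 arrays reached 6), scalings, priors, weights, designs and limits, and each array left out in turn. Raw array images were not analysed here.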

Additional observations from a re-analysis of the deposited data

Results flagged for a closer look

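A difference between genotypes in the smoke effect, tested as the P65 KO minus Wildtype smoke difference (limma, adjusted over all genes), passed for 58 of the genes that the naming rule picked. Values are log2.

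Among genes that passed in both genotypes with opposite signs, the value was Cyp1a1 7.21, H2-Ea 5.87, Retnla 4.45, Ces1g 2.89, Aldh3a1 2.47, Gclc 1.06, Cbr3 1.00 and Gpx2 1.00, and Cd5l had -3.60.

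Among genes that passed in 1 genotype, lung genes that fell in Wildtype gave Cyp2f2 5.22, Scgb1a1 4.53, Tmem100 4.06, Reg3g 4.05, Adh1 3.82, Ager 2.90 and Sftpc 1.53. Scgb1a1 is the main secreted protein of club cells and Ager a membrane receptor of alveolar type I cells. Smoke-response genes gave Cyp1b1 2.53, Ahr 1.54, Nqo1 1.47, Hmox1 -1.53, Tiparp -0.57 and Cyp1a2 -0.34. Immune genes gave Cxcl2 -2.28, Arg1 -1.94, Jchain -1.91, Ido1 -1.79, Cd274 -1.68, Ciita -1.0 and Mmp12 -0.88.

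Shared falls that were smaller in P65 KO have a positive value. Among stromal, heart muscle and other tissue genes it was Dpp4 2.46, Myl4 1.59, Pln 1.41, Mfap4 1.22, Foxf1 0.99, Gap43 0.86, Npy1r 0.82 and Tinag 0.81. Sterol and lipid genes gave Scd2 1.20, Insig1 0.84, Msmo1 0.68 and Lss 0.51. Lymphocyte genes gave Ms4a1 1.00, Cd3g 0.61 and Cd79b 0.45. Dpp4, a surface peptidase, fell by 2.78 in Wildtype and 0.32 in P65 KO.

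Shared falls that were larger in P65 KO have a negative value, which was Igkv9-120 -1.85, Trim12a -1.58, Gbp8 -0.99, Klf4 -0.57, Itgal -0.55 and Adipoq -0.41. Itgal encodes the alpha chain of the leukocyte integrin LFA-1, and Klf4 a transcription factor of vessels and monocytes.

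Shared rises were larger in P65 KO for Slc4a1 0.66 and Esm1 0.66. They were larger in Wildtype for Wfdc17 -0.83, Angptl4 -0.63, Gda -0.56, Col6a3 -0.46, Col6a2 -0.36 and Cd33 -0.33. The causes were not tested.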

How the results depend on the processing

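Average calls (3789; 1398 higher, 2391 lower) became 6393 (4490 higher) with median centring, 8473 (4763 and 3710) with array weights and 1514 (402 and 1112) with an additive model, whose residual takes up the unequal response. Quantile normalization gave 2706 higher. Leaving out 1 array gave 2858 to 6394 calls, 825 to 3302 higher and 2024 to 3092 lower. The highest came without Wildtype smoke array 1.

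Shared genes (173; 34 higher, 139 lower) numbered 561 (120 and 441) with array weights, 299 (254 lower) with each genotype fitted alone, 77 (11 and 66) with the larger p of both genotypes adjusted, 69 (11 and 58) at an adjusted p limit of 0.01 and 57 (5 and 52) with at least 0.5 log2 in both. Shared rises were 59 with quantile normalization and 54 with median centring. With 1 array left out they ranged from 81 to 287 (11 to 50 higher, 70 to 237 lower). Opposite genes (120) were 344, 53, 47 and 43 with array weights, the larger p, the 0.01 limit and the 0.5 log2 limit, and 61 to 171 with 1 array left out. Shared genes of unequal size (70) were 268 with array weights and 26 to 136 with 1 array left out.

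Replicate numbers were not used to pair arrays in the main fit. Deviations of same-numbered arrays correlated at 0.17, 0.37 and -0.36 in Wildtype and 0.20, 0.16 and 0.01 in P65 KO. Those of differently numbered arrays ran from -0.59 to 0.49 in Wildtype and from -0.21 to 0.08 in P65 KO. So few values cannot tell whether the numbers mark pairs or batches. With the replicate block, 4051 average calls, 155 shared (33 higher, 122 lower) and 115 opposite genes were found. Of 104 named genes, the average reversed for 0 in the alternatives run. Causes of these shifts were not tested. With 3 arrays a group, a missed call in P65 KO does not show that a gene did not respond. Dpep2 and Cflar, named after their values were seen, had further probe sets that missed the test in P65 KO.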

Other observations

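Smaller groups held shared falls too. Of 19 circadian clock and output genes, Nr1d2, a nuclear receptor of the clock, fell by 0.46 in Wildtype and 0.67 in P65 KO, and Tef, a clock-driven transcription factor, by 0.66 and 0.36. Nr1d1, the paralogue of Nr1d2, named after its values were seen, rose by 0.30 in Wildtype and fell by 0.95 in P65 KO. The labels give no hour of collection, and its part was not tested. Klf2 and Klf4, transcription factors of endothelium and leukocytes, fell by 0.47 and 0.48 and by 0.30 and 0.87, and were the shared members of 26 immediate early genes. Each was called shared in 14 of 22 settings. Klf4 lost the call with quantile normalization, median centring and each genotype fitted alone, and Klf2 without any single P65 KO air array.

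Sntn and Spag17, genes of motile cilia, fell by 0.61 and 0.36 and by 0.36 and 0.30, while 18 of 22 ciliated cell markers fell in Wildtype and 2 in P65 KO. Neither was shared without any P65 KO air array, P65 KO smoke array 1 or P65 KO smoke array 3, or after median centring or quantile normalization. Of 17 nonclassical monocyte genes, 13 fell in P65 KO and 4 in Wildtype, where 5 rose. Itgal and Eno3, an enolase, were the shared falls of that list. Eno3 was called shared in 12 of 22 settings. Tlr3, a receptor of double-stranded RNA, fell by 0.22 and 0.40, and C2, a complement component, by 0.27 and 0.55. Tlr3 and C2 were called shared in 14 of 22 settings each. Both lost the call with quantile normalization, with median centring and with each genotype fitted alone.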
